A study of Mus musculus with 3 samples.

Results

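The S phase DNA replication genes described here are 40 genes whose products copy DNA and its chromatin. They were taken from a fixed list of S phase genes written as mouse gene symbols. They are 40 of the 33696 genes in the count tables, and every one of the 40 had UMIs (unique molecular identifiers, each standing for 1 captured transcript) in each of the 8 lineages below in each library. Single-cell RNA (10x 3′ v3.1 chemistry) was measured in CD45+ tumor-infiltrating leukocytes (TILs) sorted live from subcutaneous KP1 tumors. KP1 is a mouse small-cell lung cancer (SCLC) line mutant for Rb and p53, and 500000 cells were inoculated per mouse. The F1 hosts (female B6129SF1/J, wild-type) were given 3 μg of functional cytokine per dose, starting on day 7 and repeated on alternate days until day 19, when tumors were collected. The 3 groups, with 1 library each, were mono-IL-10 (Supermono-10 in the labels), a monomeric form of interleukin-10; the IL-10/2-Trikine, built on mono-IL-10 to add an IL-2 type signal; and Combo, the same Trikine with the PD-1 antibody RMP1-14 at 200 μg per dose, given on day 7, day 11, day 15 and day 19. The treatment labels name PD1 for the Combo library only, whereas the protocol text common to all 3 libraries mentions the antibody without naming a group. The paper gives an age of the mice at purchase. Neither their age at treatment nor the number of mice behind a library was given in the sources used here, and with 1 library per group no test between treatments was possible. Intervals of levels, ratios and shares below cover counting error only. The order-statistic intervals of list medians describe the spread among genes, treated as independent. They do not give the precision of a difference between treatments. Every difference is one between these libraries.

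Before S phase, the Mcm2 to Mcm7 helicase is loaded onto DNA with the help of Cdc6. It is activated with Cdc45 and the GINS complex, and polymerases held by the Pcna clamp then copy each strand from nucleotides made by ribonucleotide reductase and thymidylate synthase. Most of these genes are targets of E2F transcription factors, which the retinoblastoma protein holds in check until a cell commits to divide. In lymphocytes, IL-2 receptor signaling is a well known driver of that commitment.

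Between 22235 and 26967 barcodes per library passed the filter of at least 200 genes and at most 20% mitochondrial UMIs, with medians of 4273 to 5562 UMIs. In each library this was more than the study's methods state after the same limits, and the reason was not given in the sources used here. The labels call the cells T cells, but T cell-like clusters held 37.1%, 42.9% and 45.1% of them in the mono-IL-10, Trikine and Combo libraries, the order used throughout for values given in threes. Within these clusters, cells were gated as CD8, Foxp3-negative CD4 or Foxp3-positive T cells by UMIs of Cd8a/Cd8b1, Cd4 and Foxp3. Cells of NK cell-like clusters were called NK-receptor T cells with a Cd3 UMI and NK cells without one. Finding such a UMI depends on depth. Median depths were 4665, 6995 and 4292 UMIs in NK-receptor T cells and 3627.5, 2991 and 2851 in NK cells. Trdc, the γδ T cell receptor constant gene, was found in 22.2% to 23.2% of the NK-receptor T cells and in 14.2% to 17.4% of the NK cells, so that the NK gate also held cells with T cell receptor RNA. The T cell-like clusters had different shares in each library. The cluster led by Ccl5 and Wdr95 held 12.7%, 10.5% and 10.3% of all cells, and the cluster led by Calcb and Serpine2 9.26%, 6.89% and 12.5%. The cluster led by Dapl1 and Igfbp4 held 6.34%, 0.982% and 0.883%, the cluster led by Tnfsf11 and Ccl1 3.32%, 9.17% and 7.94%, and a Cd8b1- and Gzmk-led cluster 3.71%, 10.6% and 8.41%. Clusters that could not be named held 10.3%, 6.37% and 7.31% of all cells and are in none of the lineages. Of these, a cluster led by Ptprm and Sox5, at 0.161 times the median depth, held 6.73%, 0.145% and 4.55%. Scrublet called 14.4%, 16.8% and 4.09% of cells doublets, which were kept here and removed as an alternative. It was run on each library alone, with a threshold set anew in each. In a cluster with both macrophage and T cell markers it called 95.3%, 95.9% and 49.7% of cells. Cd3e was found in 89.0%, 86.9% and 76.9% of that cluster. In the unnamed clusters it called 24.7%, 59.2% and 14.8%. Doublet rates, and results with called doublets removed, may thus not be equally strict across libraries. Pairs of libraries shared 137 to 180 cell barcodes, under 1% of the cells of either. The free RNA of each library, read from barcodes with at most 50 UMIs, held 2539, 4242 and 3010.2 summed S phase CPM (the UMIs of the 40 genes, scaled in the usual way to a fixed total of UMIs), in the same order across libraries as the T cell-like cells below.

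In T cell-like cells, all 40 genes were higher with the Trikine than with mono-IL-10 (background 36.7% of all genes) and all 40 were lower in Combo than with the Trikine alone (background 42.7%). Their summed level was 2824 CPM (95% interval 2808 to 2839) with mono-IL-10, 5017 CPM (95% interval 5002 to 5033) with the Trikine and 3656 CPM (95% interval 3643 to 3669.6) in Combo. It was 1.78 (95% interval 1.77 to 1.79) times as high with the Trikine as with mono-IL-10, and the Combo level was 0.729 (95% interval 0.725 to 0.732) of the Trikine level and still above that of mono-IL-10. The median log2 ratio of the 40 genes, Trikine over mono-IL-10, was 0.90 (95% order-statistic interval 0.75 to 1.01), against a median of -0.18 over all 15440 genes with at least 20 UMIs in the pair. Of the 40 genes, 30 were at least 1.5-fold higher, where 9.36% of all genes were. For Combo over Trikine the median was -0.49 (95% order-statistic interval -0.54 to -0.45) against 0.061 over all genes, and 10 of the 40 genes were at least 1.5-fold lower, against 5.34% of all genes. Called doublets made up 3.48%, 10.1% and 0.519% of the T cell-like cells, most in the library with the highest S phase level, and without them the medians were 0.86 and -0.46. The Trikine library enters both ratios, so these are not 2 independent observations.

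**Figure D1:**
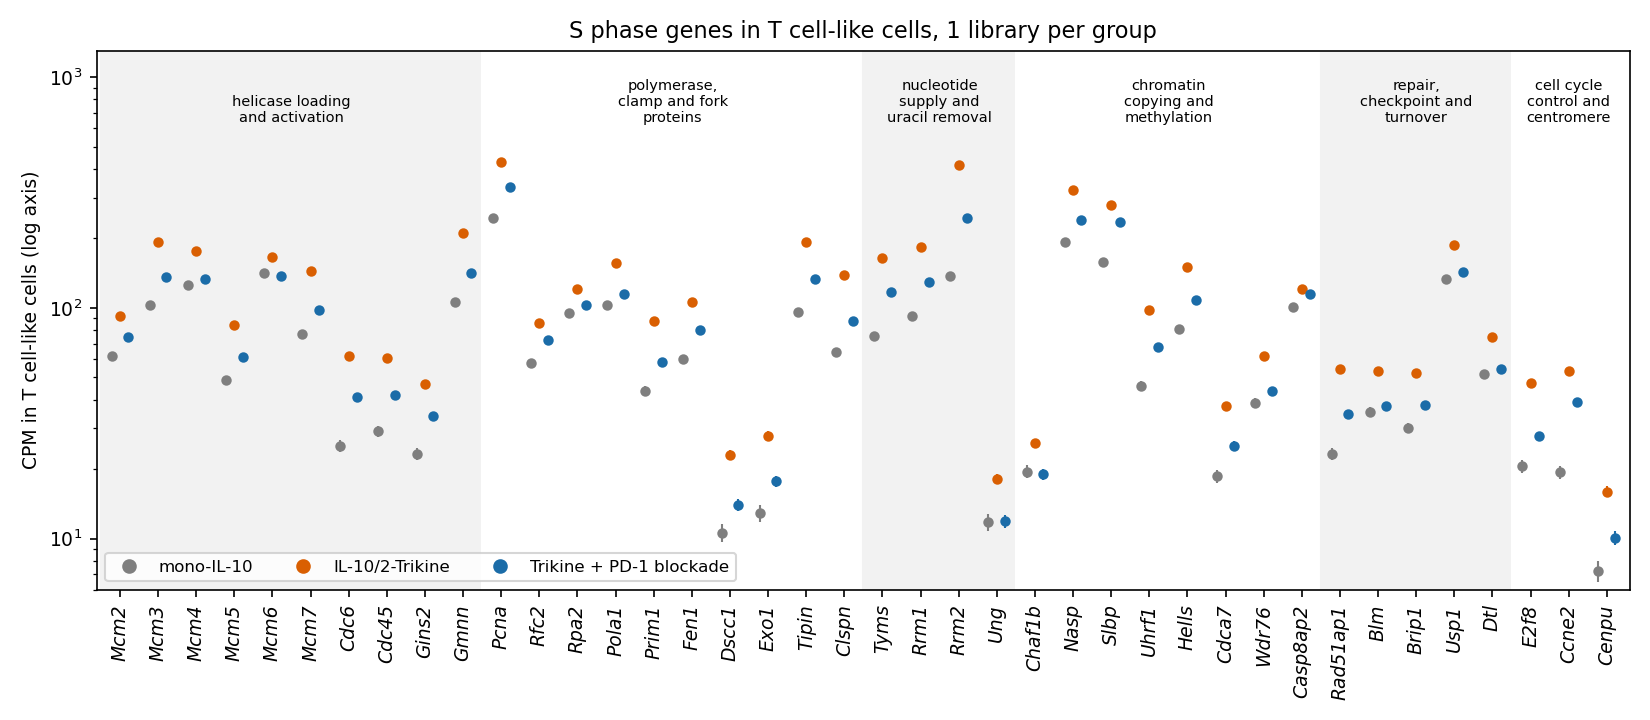
CPM of each of the 40 S phase genes in T cell-like cells (log axis) by library, grouped by role; points are the pooled level of 1 library and bars its 95% Poisson interval. For every gene the Trikine point is the highest of the 3, from Cenpu at 15.9 CPM to Pcna at 429.5 CPM.

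The 10 genes that load and activate the helicase had a median log2 ratio of 0.91 for Trikine over mono-IL-10, with a range of 0.23 to 1.30. Gmnn, which encodes geminin, the inhibitor that stops a second round of loading, stood at 106 CPM with mono-IL-10, 211 with the Trikine and 141 in Combo. It was 1.99-fold (95% interval 1.93 to 2.05) higher with the Trikine than with mono-IL-10. The helicase subunit genes differed among themselves. Mcm6 stood at 141, 165 and 137 CPM and had the smallest difference of all 40 genes, 1.17-fold (95% interval 1.14 to 1.21). Mcm4 stood at 126, 177 and 133 CPM, 1.40-fold (95% interval 1.36 to 1.45) higher with the Trikine. Cdc6, the loading factor, stood at 25.1, 61.7 and 41.0 CPM and was 2.46-fold (95% interval 2.30 to 2.62) higher. Mcm2, Mcm3, Mcm5 and Mcm7 lay in between, with log2 ratios of 0.58, 0.91, 0.80 and 0.90, and the activation genes Cdc45 and Gins2 were at 1.06 and 1.02.

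Genes of the polymerase, the clamp and the fork had a median log2 ratio of 0.91 (range 0.34 to 1.13, 10 genes). Pcna, the sliding clamp, stood at 246, 429.5 and 333 CPM, 1.74-fold (95% interval 1.71 to 1.78) higher with the Trikine than with mono-IL-10. Tipin, a fork protection factor and partner of Timeless, stood at 96.2, 193 and 133 CPM, 2.01-fold (95% interval 1.94 to 2.08) higher. Pola1, the catalytic subunit of polymerase α, stood at 102, 156 and 115 CPM, 1.52-fold (95% interval 1.47 to 1.57) higher. Rpa2, a subunit of the complex that coats single-stranded DNA, was among the least different genes at 95.3, 120.5 and 103 CPM, or 1.26-fold (95% interval 1.22 to 1.31). The primase gene Prim1, the checkpoint mediator Clspn, the nuclease genes Fen1 and Exo1 and the clamp loader genes Rfc2 and Dscc1 had log2 ratios between 0.57 (Rfc2) and 1.13 (Dscc1).

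The 4 genes of nucleotide supply and uracil removal ranged from a log2 ratio of 0.63 for the uracil glycosylase gene Ung to 1.59 for Rrm2. Rrm2, the regulated subunit of ribonucleotide reductase, had the largest difference of all 40 genes. It stood at 138, 415 and 244 CPM, 3.01-fold (95% interval 2.93 to 3.09) higher with the Trikine than with mono-IL-10, and the Combo level was 0.588 (95% interval 0.578 to 0.599) of the Trikine level, also the largest difference of that comparison. Its partner subunit Rrm1 stood at 92.4, 183 and 129.9 CPM, 1.99-fold (95% interval 1.92 to 2.06) higher. Tyms, thymidylate synthase, stood at 75.2, 164 and 118 CPM, 2.18-fold (95% interval 2.10 to 2.27) higher.

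Genes that copy chromatin and its methylation had a median log2 ratio of 0.78 (range 0.27 to 1.09, 8 genes). The histone chaperone Nasp stood at 193, 324 and 241 CPM, 1.68-fold (95% interval 1.64 to 1.72) higher with the Trikine. Slbp, which binds histone mRNA, stood at 157, 278 and 236 CPM, 1.76-fold (95% interval 1.72 to 1.81) higher, and its Combo level was 0.851 (95% interval 0.835 to 0.868) of the Trikine level. Hells, a chromatin remodeler needed for DNA methylation, stood at 81.1, 151 and 108 CPM, 1.86-fold (95% interval 1.79 to 1.93) higher. Chaf1b, a subunit of chromatin assembly factor 1, stood at 19.5, 25.9 and 19.0 CPM or 1.33-fold (95% interval 1.23 to 1.44). The lowest of the 8 was Casp8ap2, which acts in histone pre-mRNA processing, at 101, 121 and 115 CPM or 1.20-fold (95% interval 1.16 to 1.24). Its Combo level was 0.949 (95% interval 0.922 to 0.977) of the Trikine level, the smallest difference of the 40. Uhrf1, Cdca7 and Wdr76 had log2 ratios of 1.09, 1.01 and 0.66.

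The repair, checkpoint and turnover genes had a median log2 ratio of 0.58 (range 0.49 to 1.22, 5 genes), and the 3 genes of cell cycle control and the centromere one of 1.20 (range 1.14 to 1.46). Usp1, which removes ubiquitin from Pcna, stood at 134, 188 and 143 CPM, 1.40-fold (95% interval 1.36 to 1.44) higher with the Trikine. Dtl, which targets Cdt1 for degradation, stood at 51.7, 74.5 and 54.5 CPM, 1.44-fold (95% interval 1.37 to 1.51) higher. The helicase gene Blm stood at 35.4, 53.0 and 37.4 CPM, 1.49-fold (95% interval 1.41 to 1.58) higher. Rad51ap1 differed more than these 3, at 23.3, 54.1 and 34.8 CPM or 2.32-fold (95% interval 2.17 to 2.49), and Brip1 had a log2 ratio of 0.79. Ccne2, cyclin E2, stood at 19.4, 53.4 and 39.2 CPM, 2.76-fold (95% interval 2.57 to 2.97) higher. E2f8, a repressor of the E2F family, stood at 20.6, 47.3 and 27.9 CPM, 2.30-fold (95% interval 2.14 to 2.47) higher. The centromere gene Cenpu stood at 7.21, 15.9 and 10.1 CPM, 2.21-fold (95% interval 1.958 to 2.50) higher. Usp1, Dtl and Blm thus sat with Mcm6, Rpa2 and Casp8ap2 in the lower part of the range, and Rrm2, Ccne2, Cdc6, Rad51ap1 and E2f8 formed its top.

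The promoters of the 40 genes were searched for the letters an E2F site takes (TTTGGCGC, TTTCGCGC, TTTCCCGC or TTTGCCGC, on either strand). Most genes of such a list are E2F targets, so the shares below describe the list and not these libraries. RefSeq promoter windows of 300 bases (250 before the transcription start and 50 after it, build GRCm38.p6) were matched by symbol for 31 of the 40 genes. A match was found in 12 of these 31 genes (38.7%), against 2.60% of all 27025 genes with a window. The 46 of 52 G2/M genes with a window held it in 3 (6.52%), and the other replication genes, a further list of 46, in 12 of 38 (31.6%). The letters of the cell cycle homology region, TTTGAA, were present in 6 of the 31 S phase genes (19.4%) and 33 of the 46 G2/M genes (71.7%), against 20.2% of all genes. CCAAT, on either strand and free to share bases with the other letters, was present in 23 (74.2%) and 35 (76.1%), against 41.1%. Members with an E2F-like match had a median T cell-like log2 ratio of 0.90 (Trikine over mono-IL-10, range 0.23 to 1.30, 12 genes), and members whose window held none one of 0.82 (range 0.34 to 1.59, 19 genes). The 9 members without a window had one of 1.01 (range 0.49 to 1.46). A match is a description of letters and not a measured site. The windows of 3 genes are shown, read 5′ to 3′ on the gene's strand, with the E2F-like letters in capitals: those of Cdc6 and Mcm6, which have the highest and the lowest T cell-like ratio among the members with a match, and that of Pola1, which was lower with the Trikine in tumor cells.
Cdc6 (chr11:98907901-98908200, plus strand): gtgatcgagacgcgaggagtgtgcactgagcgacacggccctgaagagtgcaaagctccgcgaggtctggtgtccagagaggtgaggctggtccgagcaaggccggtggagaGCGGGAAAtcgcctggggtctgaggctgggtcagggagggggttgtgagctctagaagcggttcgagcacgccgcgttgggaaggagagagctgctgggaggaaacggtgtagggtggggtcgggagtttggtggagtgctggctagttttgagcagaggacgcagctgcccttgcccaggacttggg
Mcm6 (chr1:128359656-128359955, minus strand): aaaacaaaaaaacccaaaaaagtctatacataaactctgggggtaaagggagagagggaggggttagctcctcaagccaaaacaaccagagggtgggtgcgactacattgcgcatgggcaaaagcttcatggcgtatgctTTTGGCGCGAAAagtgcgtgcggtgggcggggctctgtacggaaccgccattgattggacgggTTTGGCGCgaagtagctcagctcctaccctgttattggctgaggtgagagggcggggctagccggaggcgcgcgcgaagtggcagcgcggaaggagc
Pola1 (chrX:93632106-93632405, minus strand): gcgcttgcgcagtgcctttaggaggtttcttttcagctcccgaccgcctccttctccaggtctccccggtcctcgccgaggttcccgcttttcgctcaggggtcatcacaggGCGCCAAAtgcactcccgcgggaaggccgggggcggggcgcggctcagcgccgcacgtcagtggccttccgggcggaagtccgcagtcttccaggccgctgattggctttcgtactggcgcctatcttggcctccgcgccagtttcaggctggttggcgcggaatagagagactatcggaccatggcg

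In Cdc6 and Pola1 the capitals mark 1 match each, on the opposite strand and 138 bases before the start in both. In Mcm6 they mark 3 matches, of which the first pair overlaps on opposite strands.

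The lineages were compared to ask which of them carried the T cell difference, and whether it reached other cells of the tumor. With mono-IL-10 the summed S phase level was highest in KP1 tumor cells (4824 CPM), followed by Foxp3-positive T cells (3298), CD8 T cells (2802), Foxp3-negative CD4 T cells (2551), NK-receptor T cells (2347), macrophages (1828), NK cells (1422) and monocytes (550.00). With the Trikine the Foxp3-negative CD4 T cells came first (5379), ahead of tumor cells (5197), CD8 T cells (4818), NK-receptor T cells (4584), Foxp3-positive T cells (4305), NK cells (3018), macrophages (2481) and monocytes (642). In Combo the order was tumor cells (4954), Foxp3-positive (3885), Foxp3-negative CD4 (3812), NK-receptor (3371) and CD8 T cells (3312), macrophages (2075), NK cells (1985) and monocytes (568). Foxp3-positive T cells thus stood first among the lymphocytes in the mono-IL-10 and Combo libraries and behind CD8, Foxp3-negative CD4 and NK-receptor T cells with the Trikine. That gate needs a Foxp3 UMI, and its median depths were 5848, 5861 and 7258 UMIs. Those of CD8 T cells were 4257, 4503.5 and 3438, and those of Foxp3-negative CD4 T cells 3971, 5967 and 5329. The sub-cluster named by Foxp3 held 450, 1261 and 1440 cells, and Foxp3 was found in 64.5% of them. No neighbors in these orders had overlapping Poisson intervals, but those intervals hold no variation between mice. Of the 40 genes taken singly, 30 were highest in tumor cells with mono-IL-10, 18 with the Trikine and 27 in Combo, and 0, 16 and 4 were highest in Foxp3-negative CD4 T cells. Of all genes with at least 20 UMIs over the 8 lineages of a library, 39.1%, 39.4% and 40.2% were highest in tumor cells, and 6.95%, 6.3% and 5.62% in Foxp3-negative CD4 T cells.

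**Figure D2:**
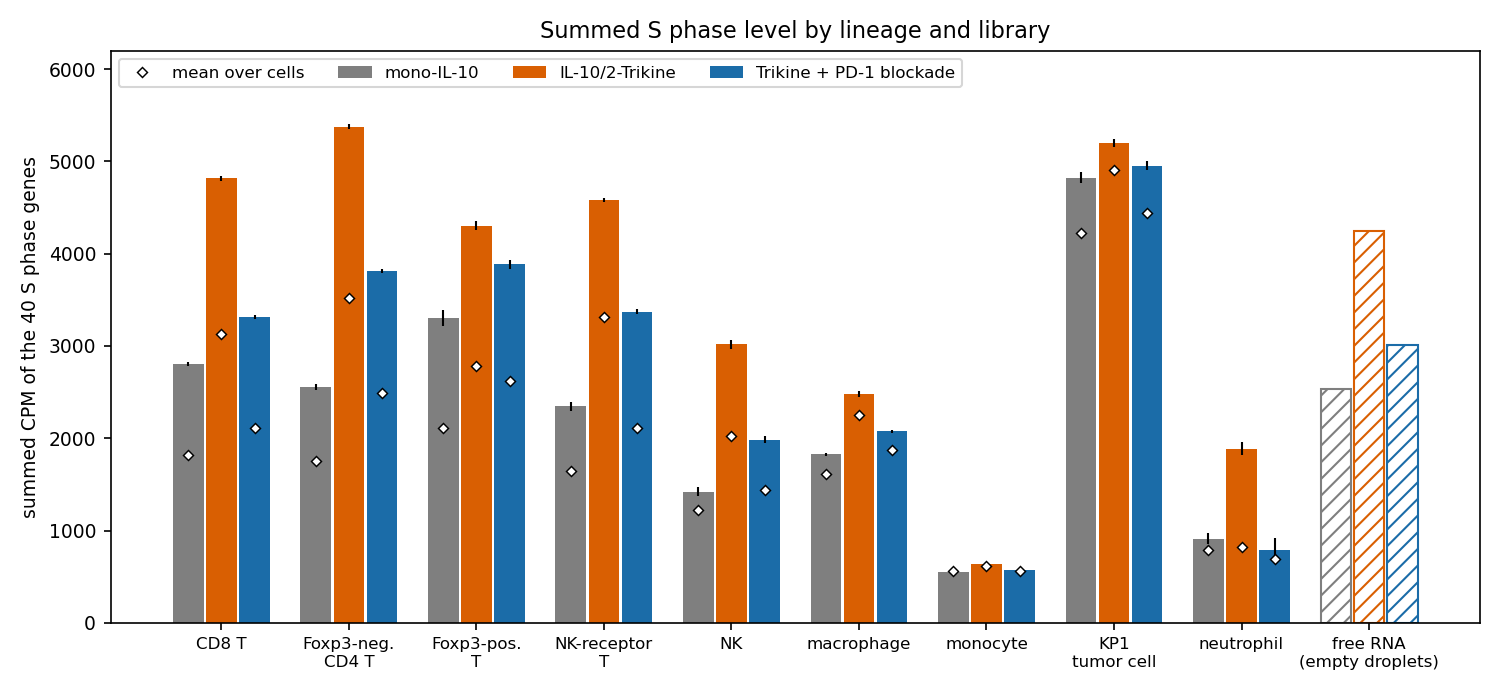
Summed CPM of the 40 S phase genes in each lineage and library (bars, pooled UMIs, with 95% Poisson intervals), the mean over cells of each cell's own level (diamonds), and the free RNA of empty droplets (hatched). The T cell gates, NK cells and free RNA are highest in the Trikine library, tumor cells vary only from 4824 to 5197 CPM, and monocytes stay between 550.00 and 642 CPM.

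Foxp3-negative CD4 T cells (1635, 2165 and 3493 cells) had the largest difference among the gated T cell subsets. Their summed level was 2.11 (95% interval 2.08 to 2.14) times as high with the Trikine as with mono-IL-10, with a list median of 1.19 (95% order-statistic interval 0.93 to 1.32) against -0.18 for all genes. Of the 40 genes, 35 were at least 1.5-fold higher (background 12.7%). Rrm2 stood at 113, 459.5 and 262 CPM, 4.06-fold (95% interval 3.80 to 4.35) higher. Mcm3 stood at 84.9, 215 and 145 CPM, 2.53-fold (95% interval 2.34 to 2.74) higher, and Clspn at 47.7, 142 and 90.03 CPM, 2.98-fold (95% interval 2.68 to 3.31) higher. Rpa2 differed least, at 81.6, 101 and 94.9 CPM or 1.24-fold (95% interval 1.13 to 1.35). In Combo the summed level was 0.709 (95% interval 0.703 to 0.715) of the Trikine level, the list median was -0.55 (95% order-statistic interval -0.58 to -0.46), and 12 genes were at least 1.5-fold lower (background 6.09%).

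CD8 T cells (4381, 4394 and 4456 cells) were the most numerous gate, and their summed level was 1.72 (95% interval 1.70 to 1.74) times as high with the Trikine. The list median was 0.80 (95% order-statistic interval 0.70 to 0.90) against -0.14 for all genes, and 28 of the 40 genes were at least 1.5-fold higher (background 8.08%). Ccne2 differed most, at 17.9, 53.4 and 33.3 CPM or 2.98-fold (95% interval 2.68 to 3.31), and Rrm2 stood at 141, 408 and 221 CPM, 2.90-fold (95% interval 2.79 to 3.01) higher. Pcna stood at 239.7, 400.4 and 302 CPM, 1.67-fold (95% interval 1.62 to 1.72) higher. Gene by gene, the ratio was larger in Foxp3-negative CD4 than in CD8 T cells for 38 of 40 genes (background 45.5% of all genes measured in both), with counting intervals apart for 23 of them (background 9.3%). In the Combo comparison CD8 T cells had the larger difference in the sum as a ratio. In CPM it was not the larger, from 4818 to 3312 against 5379 to 3812 in Foxp3-negative CD4 T cells. The Combo level of CD8 T cells was 0.687 (95% interval 0.681 to 0.694) of the Trikine level, the list median was -0.60 (95% order-statistic interval -0.66 to -0.52), and 22 genes were at least 1.5-fold lower (background 6.61%).

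Foxp3-positive T cells (Foxp3 is the defining factor of regulatory T cells) differed least among the T cell gates in both comparisons. They were few with mono-IL-10 (216, 657 and 671 cells). Their summed level was 1.31 (95% interval 1.27 to 1.34) times as high with the Trikine, the list median was 0.38 (95% order-statistic interval 0.30 to 0.48) against -0.10 for all genes, and 8 genes were at least 1.5-fold higher (background 6.22%). Rrm2 stood at 207, 359 and 262 CPM, 1.73-fold (95% interval 1.55 to 1.94) higher, and Pcna at 251, 387 and 346 CPM, 1.54-fold (95% interval 1.39 to 1.71) higher. Mcm6 stood at 145, 141 and 152 CPM and Dtl at 67.7, 57.8 and 62.7 CPM, with intervals of the ratio that include 1 (0.844 to 1.13 and 0.690 to 1.06). The ratio was below that of CD8 T cells for 38 of 40 genes, with intervals apart for 21, against 51.8% and 5.83% of all genes measured in both. It was below that of Foxp3-negative CD4 T cells for 38, with intervals apart for 30, against 47.7% and 8.84% of all genes. In Combo the summed level was 0.902 (95% interval 0.887 to 0.918) of the Trikine level, the list median was -0.16 (95% order-statistic interval -0.22 to -0.11), and 0 genes were at least 1.5-fold lower (background 3.5%), with 39 of 40 genes having a larger ratio than in CD8 T cells (background 49.3%). That median was -0.093 with every cell weighted alike and -0.25 with subsets from sub-clusters.

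NK-receptor T cells (638, 3752 and 2378 cells) and NK cells (690, 1339 and 1872 cells) had the same direction as the conventional T cells. Ncr1, an NK cell receptor gene, was found in 41.5%, 33.3% and 41.8% of the NK-receptor T cells, and 18.8%, 16.2% and 1.89% of them were called doublets, against 2.75%, 2.02% and 0.267% of NK cells. With called doublets removed the list medians for Trikine over mono-IL-10 were 1.12 and 1.57. Both classes were drawn from the same pair of clusters in proportions that differed between libraries. The cluster led by Klra6 and Trdc held 69.7%, 90.2% and 73.5% of NK-receptor T cells and 17.4%, 32.6% and 32.9% of NK cells, and the rest lay in the cluster led by Klra8 and Ncr1. Within the first cluster the summed level was 2627, 4688 and 3725 CPM in NK-receptor T cells and 1770.2, 3974 and 2649 CPM in NK cells. Within the second it was 1538, 2929.7 and 1711 CPM and 1345, 2431 and 1669 CPM. In NK-receptor T cells the summed level was 1.95 (95% interval 1.91 to 1.99) times as high with the Trikine, the list median was 1.11 (95% order-statistic interval 0.83 to 1.23), and 37 of the 40 genes were at least 1.5-fold higher (background 12.4%). Ccne2 stood there at 11.6, 48.5 and 39.5 CPM, 4.19-fold (95% interval 3.13 to 5.72) higher, and Cdc6 at 12.6, 51.6 and 34.2 CPM, 4.10-fold (95% interval 3.11 to 5.53) higher. In Combo 11 genes were at least 1.5-fold lower than with the Trikine (background 6.5%), with a list median of -0.48 (95% order-statistic interval -0.57 to -0.40). That median was -0.75 with every cell weighted alike and -0.28 with subsets from sub-clusters. The G2/M list had a median of -0.88 in the same cells, further from 0 than the S phase list, whereas the 2 lists lay close together in T cell-like cells (-0.49 and -0.51).

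NK cells started from the lowest level among the lymphocytes and had the highest list median. Their summed level was 2.12 (95% interval 2.05 to 2.20) times as high with the Trikine, the list median was 1.56 (95% order-statistic interval 0.98 to 1.86) against -0.065 for all genes, and 34 genes were at least 1.5-fold higher (background 10.5%). Rrm2 stood at 27.4, 144 and 70.7 CPM, 5.26-fold (95% interval 4.14 to 6.78) higher, and Clspn at 16.3, 77.5 and 35.2 CPM, 4.76-fold (95% interval 3.48 to 6.66) higher. Prim1 stood at 11.8, 53.6 and 24.2 CPM, 4.52-fold (95% interval 3.13 to 6.75) higher. For Casp8ap2, Rfc2, Chaf1b and Cenpu the interval of the ratio included 1, with Casp8ap2 at 97.7, 109 and 106 CPM, Rfc2 at 69.2, 78.5 and 65.0 CPM, Chaf1b at 5.92, 8.37 and 6.09 CPM and Cenpu at 4.44, 7.21 and 3.89 CPM. In Combo 26 genes were at least 1.5-fold lower than with the Trikine (background 7.31%), and the list median was -0.80 (95% order-statistic interval -0.90 to -0.57). Counts behind single genes were small here, from 5 UMIs upward, and when every cell was weighted alike the summed level was 1.66 times as high with the Trikine. Across CD8, Foxp3-negative CD4, NK-receptor T and NK cells, 27 of the 40 genes were at least 1.5-fold higher with the Trikine in all 4 (background 3.27% of the genes measured in all 4). Of these, 8 were so in Foxp3-positive T cells too (Cdc6, Cdc45, Pcna, Dscc1, Tyms, Rrm2, Rad51ap1 and E2f8), where 1.03% of the genes measured in all 5 lineages passed in each.

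**Figure D3:**
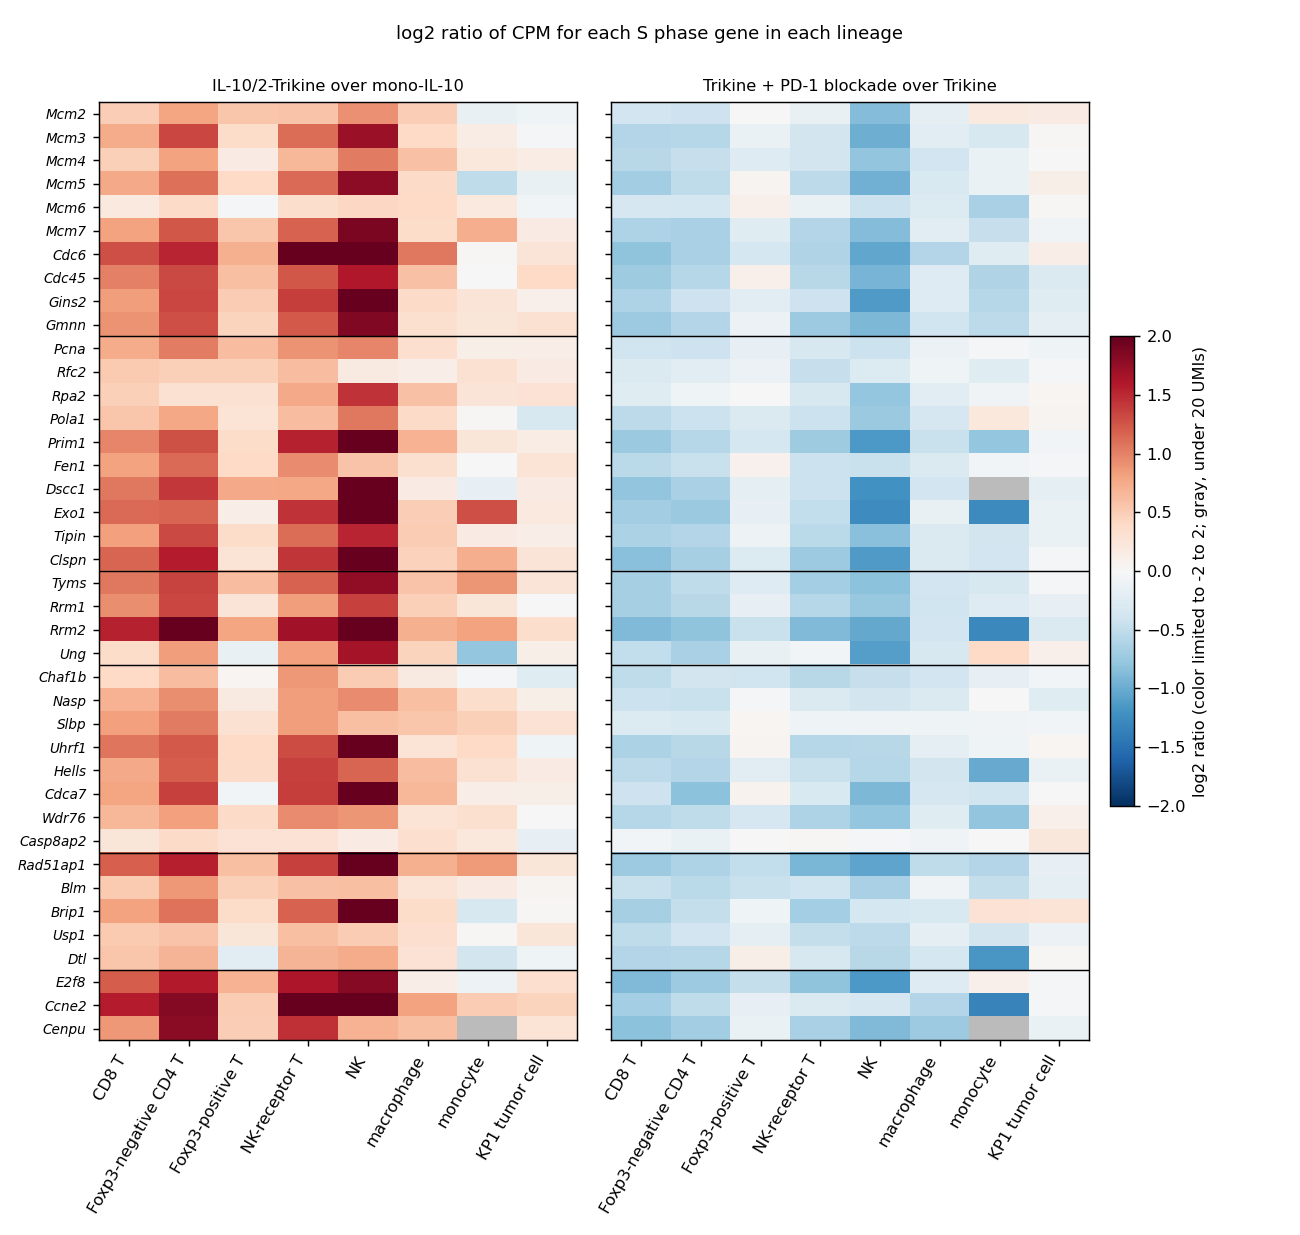
log2 ratio of CPM for each of the 40 S phase genes (rows, in role groups) in each lineage (columns), Trikine over mono-IL-10 at left and Combo over Trikine at right; color is limited to -2 to 2 and gray cells had under 20 UMIs in the pair. The lymphocyte columns are red at left and blue at right, paler in Foxp3-positive T cells, and the tumor cell column is near white in both.

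Macrophages (4226, 1836 and 4359 cells) had a smaller difference than the conventional T cells. Their summed level was 1.36 (95% interval 1.34 to 1.38) times as high with the Trikine as with mono-IL-10, the list median was 0.42 (95% order-statistic interval 0.36 to 0.56) against 0.044 for all genes, and 11 of the 40 genes were at least 1.5-fold higher (background 9.02%). Cdc6 stood at 12.5, 25.8 and 17.2 CPM, 2.07-fold (95% interval 1.76 to 2.43) higher, Rrm2 at 58.2, 94.8 and 72.8 CPM, 1.63-fold (95% interval 1.504 to 1.76) higher, and Pcna at 203, 256 and 236 CPM, 1.26-fold (95% interval 1.21 to 1.32) higher. In Combo 2 genes were at least 1.5-fold lower than with the Trikine (background 6.6%), with a list median of -0.29 (95% order-statistic interval -0.35 to -0.25). Cd3 UMIs moved with this result. The genes Cd3d, Cd3e and Cd3g together stood at 85.6, 189 and 107 CPM in these macrophages, and at 1070.4, 1328 and 1512 CPM in the free RNA. If all Cd3 UMIs in macrophages came from free RNA, that RNA would account for at most 203, 603 and 213 of the summed S phase CPM, which leaves at least 1625, 1879 and 1862 CPM. Without called doublets the macrophage level was 1804, 2459 and 2069 CPM, of which free RNA could give at most 82.0, 266 and 164.

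Monocytes (1983, 1913 and 1858 cells) had the lowest S phase level of the 8 lineages and the smallest difference in CPM. The sum was 550.00 CPM (95% interval 538 to 562) with mono-IL-10, 642 CPM (95% interval 627 to 657) with the Trikine and 568 CPM (95% interval 555 to 582) in Combo. The list median for Trikine over mono-IL-10 was 0.20 (95% order-statistic interval 0.024 to 0.30), and 6 of the 39 genes with at least 20 UMIs in the pair were at least 1.5-fold higher (background 6.55%). Pcna stood at 86.4, 93.3 and 90.6 CPM, with a ratio of 1.08 (95% interval 0.994 to 1.17). For Combo over Trikine the median was -0.32 (95% order-statistic interval -0.47 to -0.13), and 10 of 38 genes were at least 1.5-fold lower (background 6.16%). The same Cd3 reading of the free RNA allowed up to 256, 513 and 199 of these CPM, a spread between libraries wider than that of the monocyte level itself. With every cell weighted alike the medians were 0.063 and -0.14. Without called doublets the Trikine over mono-IL-10 median was 0.13 and the Combo over Trikine median -0.025.

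KP1 tumor cells (801, 1002 and 966 cells) are the remnant of the CD45+ sort and were named by neuroendocrine markers. Their S phase level was high in all 3 libraries and differed little. The class pooled 2 clusters, at 2.60 and 0.169 times the median depth of the library. The deeper one held 1.69%, 2.65% and 2.20% of all cells and the shallower one 1.92%, 1.77% and 1.39%. The sum was 4824 CPM (95% interval 4763 to 4886) with mono-IL-10, 5197 CPM (95% interval 5153 to 5242) with the Trikine and 4954 CPM (95% interval 4902 to 5006) in Combo. The list median was 0.15 (95% order-statistic interval 0.10 to 0.24) for Trikine over mono-IL-10 and -0.042 (95% order-statistic interval -0.12 to 0.011) for Combo over Trikine. With every cell weighted alike these medians were 0.28 and -0.13. The counts of members at least 1.5-fold higher (background 3.41%) and at least 1.5-fold lower (background 2.91%) were both 0. Pcna stood at 547, 598 and 565 CPM and Nasp at 583, 629.8 and 531 CPM. Ccne2 had the highest ratio, at 77.6, 106 and 103 CPM or 1.36-fold (95% interval 1.21 to 1.54). Pola1 was lower with the Trikine than with mono-IL-10, at 261, 208 and 216 CPM, a ratio of 0.797 (95% interval 0.743 to 0.855), whereas in T cell-like cells it was higher. In tumor cells with a Mki67 or Top2a UMI Pola1 stood at 260, 217 and 223 CPM. In those with neither it stood at 265, 173 and 199 CPM. At Leiden resolution 2 a shallow tumor cell cluster led by Kalrn and Galntl6 held 0.706%, 0.106% and 0.883% of all cells. Whether this uneven make-up of the class affected the Pola1 ratio was not tested. Of the 40 genes, 2 for Trikine over mono-IL-10 and 3 for Combo over Trikine went the opposite way in tumor and T cell-like cells with both intervals clear of 0, against 3.69% and 2.89% of all genes measured in both. Rb1, mutant in this line, stood at 105, 80.2 and 96.2 CPM, near the 103, 90.1 and 90.9 CPM of T cell-like cells, but 3′ tags with introns counted do not show which exons are absent.

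A cell was called S-high when it held at least 3 UMIs of the 40 genes after every cell was thinned to 1000 UMIs, which removes the difference in depth between libraries. This is a range and not a cell type. In T cell-like cells 21.3% (95% interval 20.4 to 22.3), 41.3% (95% interval 40.3 to 42.3) and 31.4% (95% interval 30.5 to 32.3) were S-high, with 872, 674 and 1663 shallower cells left out. Without thinning the shares were 71.1%, 73.9% and 70.6%. Neutrophils, which are known as non-dividing cells, were used as the background, 6.52% (95% interval 3.91 to 10.1), 8.18% (95% interval 5.80 to 11.1) and 5.80% (95% interval 1.60 to 14.2), at median depths of 2046, 1317 and 1406 UMIs before thinning, against 3941, 4768 and 3781 for T cell-like cells. This background was not a clean one, since 17.8%, 17.3% and 3.51% of the neutrophils were called doublets and Mki67 stood at 106, 173 and 83.4 CPM in them, against 22.4, 28.4 and 17.5 CPM in monocytes. Near the limit, 714 T cell-like cells of the Trikine library held exactly 3 such UMIs and 1243 held 1 fewer. With limits of 2 and 5 UMIs the ratio of the Trikine to the mono-IL-10 share was 1.41 and 2.91, against 1.94 (95% interval 1.84 to 2.04) with 3.

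By lineage, the share of S-high cells was 21.0%, 39.4% and 27.0% in CD8, 19.0%, 43.2% and 31.9% in Foxp3-negative CD4, 23.5%, 34.4% and 34.5% in Foxp3-positive and 20.5%, 44.0% and 26.4% in NK-receptor T cells. The ratio of Trikine to mono-IL-10 shares was 2.27 (95% interval 2.03 to 2.55) in Foxp3-negative CD4 T cells, 2.14 (95% interval 1.83 to 2.51) in NK-receptor T cells, 1.87 (95% interval 1.75 to 2.00) in CD8 T cells and 1.46 (95% interval 1.12 to 1.91) in Foxp3-positive T cells. With limits of 2 and 5 UMIs it was 1.51 and 4.12 in Foxp3-negative CD4 T cells and 1.49 and 3.43 in NK-receptor T cells. Unthinned, the shares were 78.3%, 75.9% and 72.0% in CD8, 75.1%, 79.6% and 82.1% in Foxp3-negative CD4, 77.8%, 78.5% and 84.5% in Foxp3-positive and 81.5%, 82.9% and 77.3% in NK-receptor T cells, at depths that differed between libraries. For Combo over Trikine the ratio was 0.601 (95% interval 0.556 to 0.649), 0.686 (95% interval 0.645 to 0.730) and 0.740 (95% interval 0.691 to 0.793) in NK-receptor, CD8 and Foxp3-negative CD4 T cells, and 1.004 (95% interval 0.864 to 1.17) in Foxp3-positive T cells, where the Combo share was not lower beyond counting error. NK cells had 9.86%, 26.3% and 17.7%, a ratio of 2.67 (95% interval 2.07 to 3.44) for the Trikine that was 1.43 and 5.08 with limits of 2 and 5 UMIs and 4.34 with thinning to 2000 UMIs and a limit of 6. Their Combo over Trikine ratio was 0.673 (95% interval 0.581 to 0.779), and 0.428 with that thinning. Their mono-IL-10 interval (7.68 to 12.4) overlapped that of the neutrophils. Macrophages had 20.6%, 30.7% and 24.2%. The 2.67%, 2.98% and 1.84% of monocytes lay below the neutrophil shares, and no difference between libraries is read from them. Tumor cells had 63.9%, 70.3% and 65.6%, with a ratio of 1.10 (95% interval 1.01 to 1.19) for the Trikine and 0.933 (95% interval 0.870 to 1.0) for Combo over Trikine. Unthinned, NK cells had 68.1%, 59.1% and 53.7%, macrophages 73.0%, 72.9% and 70.7%, monocytes 60.4%, 56.2% and 61.8%, tumor cells 63.9%, 84.7% and 79.0% and neutrophils 27.5%, 18.3% and 14.0%. Tumor cells left out as too shallow numbered 341, 207 and 248 and the class had median depths of 1359, 9800.5 and 3186 UMIs.

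**Figure D4:**
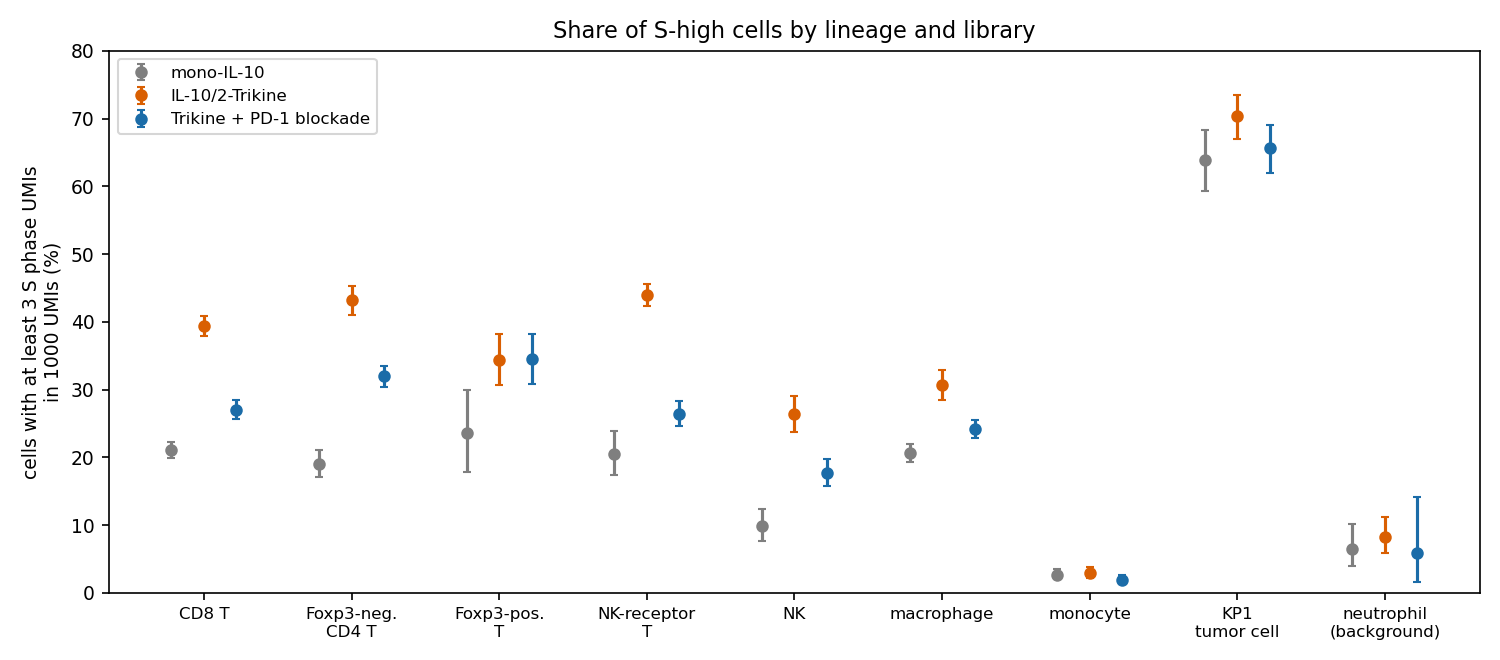
Percentage of cells with at least 3 UMIs of the 40 genes after thinning to 1000 UMIs, by lineage and library, with 95% exact binomial intervals; neutrophils are the background used. CD8, Foxp3-negative CD4, NK-receptor T and NK cells peak in the Trikine library, whereas the Trikine and Combo points of Foxp3-positive T cells coincide at 34.4% and 34.5%.

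The S-high T cells of the Trikine library mostly also held G2/M RNA. Cells with at least 3 UMIs of both lists in 1000 made up 14.8%, 36.9% and 24.6% of T cell-like cells, whereas cells S-high alone made up 6.54%, 4.35% and 6.72%. The S-high cells held more of the list in the Trikine library, with means of 5.41, 6.70 and 5.76 UMIs per 1000, and the cells below the limit held 0.845, 0.843 and 0.885. These means are of the UMIs by which the cells were selected, and cells below the limit hold fewer than 3 by definition. Cells were also parted by a UMI of Mki67 or Top2a, genes of proliferating cells that are in the G2/M list and not among the 40. Such cells were 38.2%, 52.1% and 41.7% of T cell-like cells. Their summed S phase level was 3949, 5904 and 4728 CPM. In T cell-like cells with neither gene it was 1129, 1127 and 1184 CPM, and the list median of Trikine over mono-IL-10 in them was 0.034. A UMI of either gene was also found in 14.4%, 13.4% and 12.3% of monocytes. In T cell-like cells Mki67 itself stood at 333, 567 and 386 CPM. The split thus selects on a gene that moved with the list, and the even level of the rest is partly set by it. The detection of Mki67 or Top2a depends on depth, and cells with such a UMI had medians of 6191, 10074 and 8640 UMIs, against 3416, 2838 and 2862 for the rest. In NK cells the part without either gene also differed, at 1059.8, 1359.7 and 1126 CPM. Foxp3-positive T cells had such a UMI in 55.1%, 57.8% and 59.0% of cells, the most even shares among the T cell gates.

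**Figure D5:**
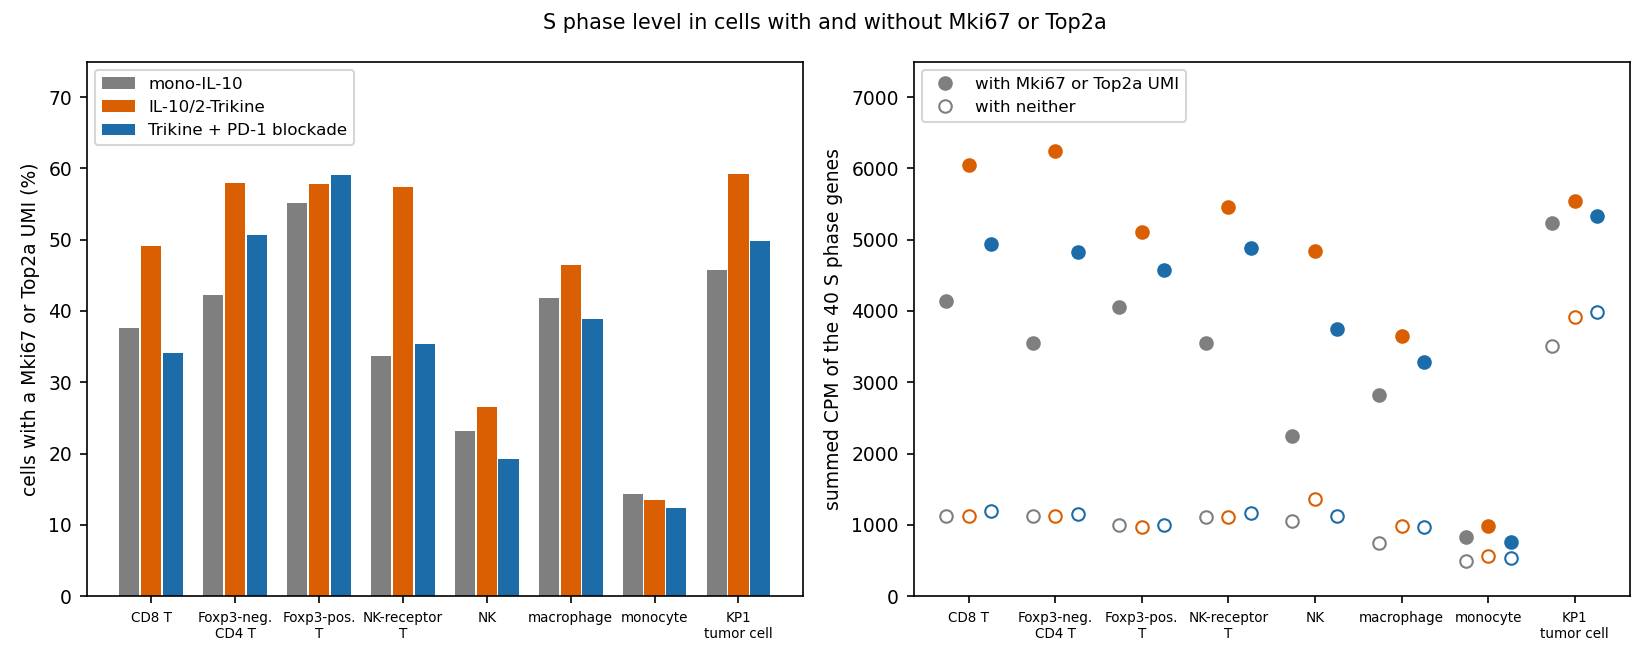
Left, percentage of cells with a Mki67 or Top2a UMI by lineage and library; right, summed CPM of the 40 S phase genes in cells with such a UMI (filled) and with neither (open). In the T cell gates the open points of the 3 libraries lie together (for CD8 T cells 1128, 1128 and 1192 CPM) and the filled ones part. The split is by genes that move with the list, which partly sets this.

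To see which T cell subset carried the difference, the change in the T cell-like sum was split into the change of each subset's level and the change of its share of T cell-like UMIs. NK-receptor T cells, which lie in NK cell-like clusters, were not part of this split. They made up 2.87%, 16.5% and 8.82% of all cells. From mono-IL-10 to the Trikine the sum changed by 2194 CPM, of which changes of level made up 98.6% and changes of share 1.40%. Shares here are those of these broad subsets only. A shift between cell states inside a subset, such as from resting to cycling cells, counts as a change of level. The 1.40% is thus no measure of all changes in composition. Foxp3-negative CD4 T cells carried 39.1%, of which 27.9% came from their level and 11.1% from a share of UMIs that went from 18.6% to 24.8%. CD8 T cells carried 11.9%, where their level alone would have given 42.5% and their smaller share, 37.5% after 55.1%, gave a part of -30.6%. Foxp3-positive T cells carried 8.66%, and ungated cells, with no subset gene or with conflicting ones, carried 40.4%. The division among subsets depended on how they were defined. With gates on thinned cells the ungated cells carried 79.8%, Foxp3-negative CD4 T cells 12.3% and CD8 T cells 5.69%, and with subsets from sub-clusters Foxp3-negative CD4 T cells carried 90.4% and CD8 T cells -7.19%. Those sub-clusters were not pure. The ones named Foxp3-negative CD4 had Cd8 UMIs in 16.9% to 41.2% of their cells. The ones named CD8 had Cd4 UMIs in 2.74% to 26.2%. With called doublets removed from the main gates, Foxp3-negative CD4 T cells carried 45.8% and CD8 T cells 16.2%. The share part counts a subset's whole level and not its distance from the T cell average. A subset with a smaller share is thus lowered in total even at an average level, and the order of the totals depends on that choice. Counted so, the CD4 total was above the CD8 total under each of these definitions. By the level part alone the order turned round, with 42.5% for CD8 and 27.9% for Foxp3-negative CD4 T cells.

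From the Trikine to Combo the sum changed by -1361 CPM. CD8 T cells carried 63.1% of this, of which 36.5% came from their level and 26.6% from a smaller share of UMIs, counted in the same way. Ungated cells carried 40.5%. Foxp3-negative CD4 T cells came to -1.09%, their lower level (34.6%) being met by a larger share of UMIs (35.3% after 24.8%). With sub-clusters the Foxp3-negative CD4 T cells carried 39.3% and CD8 T cells 57.1%, where the ungated cells carried 4.74%, and with gates on thinned cells the ungated cells carried 66.9% and CD8 T cells 37.6%. With called doublets removed the ungated cells carried 19.0%, Foxp3-negative CD4 T cells 8.13% and CD8 T cells 74.6%. Counted in cells, the S-high T cell-like cells were 57.3%, 45.4% and 34.5% CD8 T cells, and 18.8%, 24.6% and 33.0% Foxp3-negative CD4 T cells. Over all cells of a library, NK-receptor T cells made up 3.36%, 21.1% and 9.76% of S-high cells and macrophages 21.3%, 6.80% and 15.6%. The CD45+ sort and the gradient set which cells entered a library, so these shares are not shares of the tumor.

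The part of free RNA in each lineage was bounded with genes of another cell type, a step chosen after seeing the data. The summed S phase level of the free RNA itself was 1.67 (95% interval 1.63 to 1.71) times as high with the Trikine as with mono-IL-10, and the Combo level was 0.710 (95% interval 0.689 to 0.731) of the Trikine level. The macrophage genes C1qa, C1qb and C1qc, which lymphocytes do not make, stood at 3123, 888 and 2444 CPM in the free RNA and at 65.9, 18.1 and 48.7 CPM in T cell-like cells. They put the free RNA at no more than 2.92% of UMIs in any of the 5 gated lymphocyte lineages, the value of NK cells in Combo. In S phase CPM the highest bound was 102, in Foxp3-positive T cells with the Trikine. In tumor cells the same genes allowed up to 640.4 CPM with called doublets kept and 171 CPM with them removed. Neutrophils had a pooled sum of 913, 1888 and 793 CPM but a mean over cells of 784, 818 and 694.

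A second list of 46 replication genes outside the 40 followed them. Its median log2 ratio for Trikine over mono-IL-10 was 0.69 in T cell-like cells, 0.94 in Foxp3-negative CD4 T cells, 1.33 in NK cells, 0.26 in macrophages and 0.066 in tumor cells. In T cell-like cells 27 of the 46 were at least 1.5-fold higher and 0 at least 1.5-fold lower, against 9.36% and 22.0% of all genes. Among the higher log2 ratios were those of the histone chaperone gene Asf1b at 1.18, Gins1 at 1.17, Mcm10 at 1.12 and the dUTPase gene Dut at 1.10. Of the origin recognition genes, Orc1, Orc2 and Orc6 were above 0, at 0.71, 0.22 and 0.96, and Orc3, Orc4 and Orc5 below it, at -0.21, -0.29 and -0.14, as was Mcm9 at -0.40. These genes were chosen for mention after their values were seen.

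The G2/M list of 52 genes had medians of 0.85 in T cell-like cells, 1.15 in Foxp3-negative CD4 T cells, 1.40 in NK cells, 0.21 in macrophages and 0.073 in tumor cells. In macrophages it lay below the S phase median of 0.42. In a list of 8 genes made of E2F and RB family genes and Ccne1, the last, cyclin E1, stood at 26.7, 66.9 and 39.4 CPM in T cell-like cells, 2.50-fold (95% interval 2.35 to 2.66) higher with the Trikine, and the activators E2f1 and E2f2 at 14.6, 25.7 and 20.1 CPM and 34.4, 51.3 and 37.4 CPM. E2f3 and the repressor E2f7 were 1.53-fold (95% interval 1.45 to 1.62) and 1.97-fold (95% interval 1.82 to 2.13) higher. Rbl2, the pocket protein p130 of resting cells, went the other way at 204, 137 and 180.3 CPM, a ratio of 0.673 (95% interval 0.655 to 0.692) for the Trikine over mono-IL-10 and 1.31 (95% interval 1.28 to 1.35) for Combo over Trikine. Rbl1 (p107) stood at 59.6, 66.2 and 56.9 CPM and Rb1 at 103, 90.1 and 90.9 CPM. In tumor cells Rbl2 stood at 39.3, 30.6 and 39.8 CPM and Ccne1 at 43.4, 47.5 and 45.3 CPM.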

How the data were processed

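Single-cell RNA of CD45+ cells from KP1 tumors was deposited as raw UMI count matrices, 1 per library, with empty droplets included. The authors made these counts with Cell Ranger, version 8.0.0 by the file headers (the methods name a later version), with introns counted. The submitters' processing notes give the build mm10 whereas the methods give GRCm39, so no coordinates were joined to the counts, and promoter windows came from RefSeq (GRCm38.p6) by symbol. Total UMIs were 158570946, 197176873 and 175794959 in the mono-IL-10, Trikine and Combo libraries.

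Barcodes with at least 200 genes and at most 20% mitochondrial UMIs were clustered together on 2000 variable genes that excluded cell cycle genes, with 30 components, 20 neighbors, Leiden resolution 1 and seed 1 (scanpy 1.11.5, leidenalg 0.10.2, Python 3.11.15, numpy 2.4.6, scipy 1.17.1, pandas 2.3.3, matplotlib 3.10.9). Clusters were named "-like" from at least 3 marker genes. Counts were summed per lineage and library and scaled to CPM, with exact 95% Poisson intervals, and ratios had exact conditional binomial intervals where the pair held at least 20 UMIs. Shares had exact binomial intervals. As 1 library stood for each group, no test was run. Free RNA can add UMIs of other cells, and 3′ counting does not allow levels to be compared between genes. On simulated T cell-like counts with 200 changed genes, 98.0% of their intervals held the true ratio. The simulated counts were independent Poisson draws, for which such intervals are exact. This checks the calculation and not how well the intervals describe these data. Members and lists were chosen with earlier results of these data known. Named in T cell-like cells were the 3 members of highest CPM in each role and the 5 highest and 5 lowest ratios, and members given for other lineages were chosen after their values were seen. The bound on free RNA was added after seeing the data. Alternatives covered the gene filter, doublets, scaling, clustering, gates, thinning and the S-high limit.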

Additional observations from a re-analysis of the deposited data

Results flagged for a closer look

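In 5 cases a member differed in KP1 tumor cells in the direction opposite to T cell-like cells, with both counting intervals clear of 0. These were 2 of the 40 genes for Trikine over mono-IL-10 and 3 of the 40 for Combo over Trikine. Over all genes measured in both, the share was 3.69% for Trikine over mono-IL-10 and 2.89% for Combo over Trikine. Whether so few genes exceed those shares was not tested, and nothing about the list as a whole is read from them. The difference between the lineages was not tested in any of them. The make-up of the tumor cell class also differed between libraries, and its effect on these cases was not tested. For Trikine over mono-IL-10, Pola1 had a log2 ratio of -0.33 (95% interval -0.43 to -0.23) in tumor cells, with levels of 261, 208 and 216 CPM, and one of 0.60 (0.56 to 0.65) in T cell-like cells. For Trikine over mono-IL-10, Casp8ap2 had a log2 ratio of -0.17 (95% interval -0.32 to -0.0051) in tumor cells, with levels of 102, 90.7 and 106 CPM, and one of 0.27 (0.21 to 0.32) in T cell-like cells. For Combo over Trikine, Mcm2 had a log2 ratio of 0.16 (95% interval 0.046 to 0.28) in tumor cells, with levels of 143, 136 and 152 CPM, and one of -0.31 (-0.36 to -0.26) in T cell-like cells. For Combo over Trikine, Casp8ap2 had a log2 ratio of 0.23 (95% interval 0.089 to 0.37) in tumor cells, with levels of 102, 90.7 and 106 CPM, and one of -0.075 (-0.12 to -0.034) in T cell-like cells. For Combo over Trikine, Brip1 had a log2 ratio of 0.28 (95% interval 0.028 to 0.53) in tumor cells, with levels of 28.8, 29.2 and 35.4 CPM, and one of -0.46 (-0.53 to -0.39) in T cell-like cells. Casp8ap2, which acts in histone pre-mRNA processing, thus met this in both comparisons, which share the Trikine library.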

How the results depend on the processing

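Of 336 values under alternative settings, 243 stayed close to the main value, 88 moved further and 5 reversed direction. A list median was close when inside its order-statistic interval over genes, and a share ratio when inside its counting interval. A percentage carried has no interval and was close within 5 points, or within 1.5 times with the same sign. Reversals were counted for medians and share ratios whose interval had excluded no difference, and for percentages carried above 5 in size. The 5 reversals were the list medians near 0 in cells with no Mki67 or Top2a UMI, for CD8 T cells in both comparisons and for T cell-like and Foxp3-positive T cells in Combo over Trikine, and the part carried by CD8 T cells with sub-clusters. The causes of the changes were not tested. With Leiden resolution 2, where a cycling T cell cluster stayed unnamed, the list median for Trikine over mono-IL-10 was 0.97 (CD8). The list median for Combo over Trikine was -0.69 (CD8). The S-high share ratios for Trikine over mono-IL-10 were 1.79 (T cell-like) and 1.82 (CD4). The S-high share ratios for Combo over Trikine were 0.799 (T cell-like) and 0.837 (CD4). With a limit of 2 UMIs, the S-high share ratios for Trikine over mono-IL-10 were 1.41 (T cell-like), 1.42 (CD8), 1.51 (CD4), 1.49 (NK-receptor T) and 1.43 (NK). The S-high share ratios for Combo over Trikine were 0.871 (T cell-like), 0.835 (CD8), 0.856 (CD4), 0.803 (NK-receptor T), 0.870 (NK) and 0.995 (monocyte). With a limit of 5 UMIs, the S-high share ratios for Trikine over mono-IL-10 were 2.91 (T cell-like), 2.74 (CD8), 4.12 (CD4), 3.43 (NK-receptor T), 5.08 (NK) and 1.73 (macrophage). The S-high share ratios for Combo over Trikine were 0.605 (T cell-like), 0.504 (CD8), 0.588 (CD4), 0.479 (NK-receptor T), 0.461 (NK), 0.682 (macrophage) and 0.169 (monocyte). With called doublets removed, the list median for Combo over Trikine was -0.025 (monocyte). The S-high share ratio for Trikine over mono-IL-10 was 1.82 (T cell-like). The S-high share ratio for Combo over Trikine was 0.813 (T cell-like). The percentages carried for Combo over Trikine were 8.13 (CD4) and 19.0 (ungated). With gates on cells thinned to 1000 UMIs, the list median for Trikine over mono-IL-10 was 0.52 (Foxp3+). The list median for Combo over Trikine was -0.60 (CD4). The S-high share ratio for Trikine over mono-IL-10 was 1.91 (CD4). The S-high share ratio for Combo over Trikine was 0.544 (NK). The percentages carried for Trikine over mono-IL-10 were 5.69 (CD8), 12.3 (CD4), 2.19 (Foxp3+) and 79.8 (ungated). The percentages carried for Combo over Trikine were 37.6 (CD8) and 66.9 (ungated). With every cell weighted alike, the list median for Trikine over mono-IL-10 was 0.28 (tumor). The list medians for Combo over Trikine were -0.70 (CD8), -0.59 (CD4), -0.093 (Foxp3+), -0.75 (NK-receptor T) and -0.13 (tumor). With the median of all genes set to 0, the list medians for Trikine over mono-IL-10 were 1.08 (T cell-like), 0.94 (CD8), 1.37 (CD4), 0.49 (Foxp3+) and 0.24 (tumor). The list medians for Combo over Trikine were -0.55 (T cell-like) and -0.12 (tumor). In cells with no Mki67 or Top2a UMI, the list medians for Trikine over mono-IL-10 were 0.034 (T cell-like), -0.024 (CD8), 0.0097 (CD4), 0.0067 (Foxp3+), 0.093 (NK-receptor T), 0.52 (NK) and 0.27 (tumor). The list medians for Combo over Trikine were 0.019 (T cell-like), 0.0053 (CD8), -0.031 (CD4), 0.011 (Foxp3+), -0.12 (NK-receptor T), -0.36 (NK), -0.056 (macrophage), -0.10 (monocyte) and 0.033 (tumor). With subsets from sub-clusters, the list median for Trikine over mono-IL-10 was 0.26 (Foxp3+). The list medians for Combo over Trikine were -0.25 (Foxp3+) and -0.28 (NK-receptor T). The S-high share ratio for Combo over Trikine was 0.716 (NK-receptor T). The percentages carried for Trikine over mono-IL-10 were -7.19 (CD8), 90.4 (CD4) and 4.03 (ungated). The percentages carried for Combo over Trikine were 39.3 (CD4) and 4.74 (ungated). With thinning to 2000 UMIs and a limit of 6, the S-high share ratios for Trikine over mono-IL-10 were 2.53 (T cell-like), 2.37 (CD8), 3.23 (CD4), 2.81 (NK-receptor T) and 4.34 (NK). The S-high share ratios for Combo over Trikine were 0.641 (T cell-like), 0.549 (CD8), 0.630 (CD4), 0.527 (NK-receptor T) and 0.428 (NK). No paired analysis was possible because each group has 1 library, and for the same reason no library could be left out. Differences between mice, tumors, preparations and treatments cannot be told apart with 1 library per group. Depth limits single-gene ratios mainly in NK cells, Foxp3-positive T cells and monocytes.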

Other observations

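B cell-like cells (1585, 175 and 244 in the mono-IL-10, Trikine and Combo libraries) also held S phase RNA. Their S-high shares after thinning were 21.1% (95% interval 18.8 to 23.5), 22.3% (95% interval 16.4 to 29.2) and 15.3% (95% interval 10.6 to 21.0), and 55.3%, 68.0% and 61.5% without thinning. The intervals of the mono-IL-10 and Trikine shares overlapped, whereas the pooled S phase levels, 2179 CPM (95% interval 2148 to 2211), 3327 CPM (95% interval 3242 to 3415) and 1464 CPM (95% interval 1404 to 1526), did not. Called doublets made up 25.4%, 38.3% and 7.79% of these cells. The cluster with both macrophage and T cell markers, set apart from the lineages of the report, had S-high shares of 29.4% (95% interval 26.9 to 32.0), 46.3% (95% interval 42.7 to 49.9) and 33.5% (95% interval 30.6 to 36.6), or 96.5%, 96.6% and 92.3% without thinning. Called doublets made up 95.3%, 95.9% and 49.7% of it, and its depth was 2.50 times the library median. These shares are thus not read as those of a cell type. Plasmacytoid dendritic cell-like cells had 13.8% (95% interval 6.53 to 24.7), 15.8% (95% interval 9.12 to 24.7) and 10.5% (95% interval 4.66 to 19.7), from 9, 15 and 8 S-high cells. Cells under 1000 UMIs were left out of these shares, and median depths were 839.5, 5371 and 5726 UMIs. Without thinning the shares were 33.1%, 71.9% and 60.7%, over all 148, 96 and 89 cells. Called doublets made up 23.0%, 31.25% and 1.12% of the class.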
